A study of Rattus norvegicus with 2 samples.

Results

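The genes described here carry out fatty acid oxidation and ketone body formation in liver, or are known targets of the nuclear receptor that switches those pathways on. Of 38 gene names listed, 35 were found on the arrays, by an exact match of the gene name of every non-control probe, out of 33719 gene names in all. Acaa1, Dci and Peci, older names of Acaa1a, Eci1 and Eci2, were not used by the array. The 35 names carried 45 distinct probes, and 33 of them passed the filter on dim probes and were tested among 18196 genes; Ucp3 and Ppargc1a did not pass.

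Liver total RNA of Wistar rats (spelled Wister in the labels) fed a choline-deficient diet for 10 days was compared with that of rats on a control diet, at 7 weeks of age. On each of 2 arrays both diets were hybridised together; Cy5 marked the choline-deficient side of array 1 and Cy3 that of array 2. The title of each sample speaks of 4 choline-deficient rats. The labels do not say which rats or pools are on which array, nor the rats' sex. The arrays may therefore come from separate rats or be a technical dye swap of 1 extract per diet. All p-values rest on how far the 2 arrays differ, which may be technical variation alone. In the reported fit that spread is largely pooled over all genes, so a gene's own SD adds little to its p-value.

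Fatty acids enter mitochondria as carnitine esters and are shortened there by repeated rounds of dehydrogenation, hydration, dehydrogenation and thiolysis. Very long-chain and branched fatty acids are first shortened in peroxisomes, and enzymes of the Cyp4a family in the endoplasmic reticulum hydroxylate the far end of the chain. Acyl-CoA thioesterases release free fatty acid and coenzyme A in several compartments. In rodent liver many of these genes are induced by fatty acids and by fibrate drugs through the receptor PPAR-alpha, and choline deficiency is known for fat accumulation in hepatocytes.

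The probe sequences of the families whose members behaved differently are shown first, because each value below is the signal of a single 60-base oligonucleotide. They are given 5′ to 3′ as the array files list them, in lower case throughout, since no stretch was singled out by the data. Positions are in the rat build rn4 used by the files, with the strand taken from the order of the coordinates. No annotation of that build was used, so exon, intron and UTR positions are not given. The peroxisomal 3-ketoacyl-CoA thiolase genes lie on chromosome 8.
Acaa1a, brighter probe (chr8:124313801-124313860, plus strand): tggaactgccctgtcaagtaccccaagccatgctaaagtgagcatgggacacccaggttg
Acaa1a, dimmer probe (chr8:124313119-124313178, plus strand): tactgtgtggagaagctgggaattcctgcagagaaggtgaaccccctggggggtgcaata
Acaa1b (chr8:124110127-124110186, minus strand): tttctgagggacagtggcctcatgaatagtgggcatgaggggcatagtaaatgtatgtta

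The acyl-CoA thioesterase genes form a cluster on chromosome 6, where their 4 probes span 70.0 kb on the plus strand.
Acot1 (chr6:108049691-108049750): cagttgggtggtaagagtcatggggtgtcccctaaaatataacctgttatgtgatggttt
Acot2 (chr6:108024282-108024341): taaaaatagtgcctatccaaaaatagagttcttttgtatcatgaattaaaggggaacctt
Acot3 (chr6:108094199-108094258): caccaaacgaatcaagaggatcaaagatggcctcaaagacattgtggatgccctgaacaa
Acot4 (chr6:108079084-108079143): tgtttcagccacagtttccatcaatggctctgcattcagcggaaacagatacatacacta

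The Cyp4a genes lie on chromosome 5, where their 4 probes span 368 kb.
Cyp4a1 (chr5:135915621-135915680, plus strand): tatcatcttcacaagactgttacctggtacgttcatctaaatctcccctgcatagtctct
Cyp4a2 (chr5:135770520-135771718, minus strand): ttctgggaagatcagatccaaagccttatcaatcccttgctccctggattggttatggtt
Cyp4a3 (chr5:135876161-135876220, minus strand): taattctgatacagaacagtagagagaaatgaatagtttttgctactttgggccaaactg
Cyp4a8 (chr5:135547804-135547863, minus strand): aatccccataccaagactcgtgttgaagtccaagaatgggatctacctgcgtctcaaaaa

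The remaining called genes are Decr1 on chromosome 5, Angptl4 on chromosome 7 and Pdk4 on chromosome 4. Pdk4 is shown with its dimmer probe because the 2 probes gave unequal ratios with the reported processing. All lie on the minus strand.
Decr1 (chr5:30492220-30492279): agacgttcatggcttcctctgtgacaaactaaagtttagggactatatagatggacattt
Angptl4 (chr7:16262218-16262277): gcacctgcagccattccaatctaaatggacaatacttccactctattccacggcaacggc
Pdk4, brighter probe (chr4:30233848-30233907): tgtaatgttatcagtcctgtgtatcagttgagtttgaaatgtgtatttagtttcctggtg
Pdk4, dimmer probe (chr4:30239150-30241038): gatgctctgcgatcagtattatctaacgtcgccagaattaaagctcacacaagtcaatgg

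Within the 3 families the probes were unlike each other. The longest exact run shared by any pair was 6 bases among the thiolase probes, 6 among the thioesterase probes and 7 among the Cyp4a probes. None of the 45 probes shared a run of 20 bases with a probe of another gene on the array. Binding of a probe to a paralog's transcript was not tested, since transcript sequences were not used here.

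Most members differed little between the diets in absolute terms, but more than the typical gene. Their median absolute log2 ratio was 0.15, against 0.08 for all genes tested. The same median for genes of like brightness is not given here. Values are log2 ratios of choline-deficient over control, so that 1 unit is a doubling, and the SD is over the 2 arrays. The cytosolic thioesterase Acot1 rose 1.57-fold, the peroxisomal thiolase Acaa1b 1.42-fold, the omega-hydroxylase Cyp4a1 1.28-fold and the pyruvate dehydrogenase kinase Pdk4 1.26-fold. The lipoprotein lipase inhibitor Angptl4 was 1.41-fold lower and the mitochondrial dienoyl-CoA reductase Decr1 1.23-fold lower. The remaining 27 of 33 genes did not pass limma's test at an adjusted p of 0.05.

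Thus 4 members were called higher and 2 lower, or 18.2% of those tested. Among all genes the test called 8.6% (4.37% higher and 4.23% lower). The members were bright, with 24 of 33 in the brightest 10% of genes, where 17.3% of genes were called. The members' share lies near that one, but it also counts the members outside the brightest 10%. Of the 6 called members only Angptl4 lies outside it. Of all genes in the brightest 10%, 5.05% were called higher and 12.2% lower. Of all 33 members, bright or not, 12.1% and 6.06% were, which are 4 and 2 genes. By size alone, without a test, Acot1 and Acaa1b were at least 1.3-fold higher on both arrays (1.87% of all genes) and Angptl4 at least 1.3-fold lower on both (1.62%), a size chosen after the values were seen. All calls were lost with the deposited log ratio and with median centring in place of loess. Limma then called 0 genes on the whole array (2122 and 19 genes at an unadjusted p under 0.05, of them 4 and 0 members). The 6 called members kept their direction under every alternative. The changed filters, the test of single probes and the intensity trend reuse the same ratios, so no sign could change there. These 6 genes were also picked for their ratios on these arrays.

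**Figure D1:**
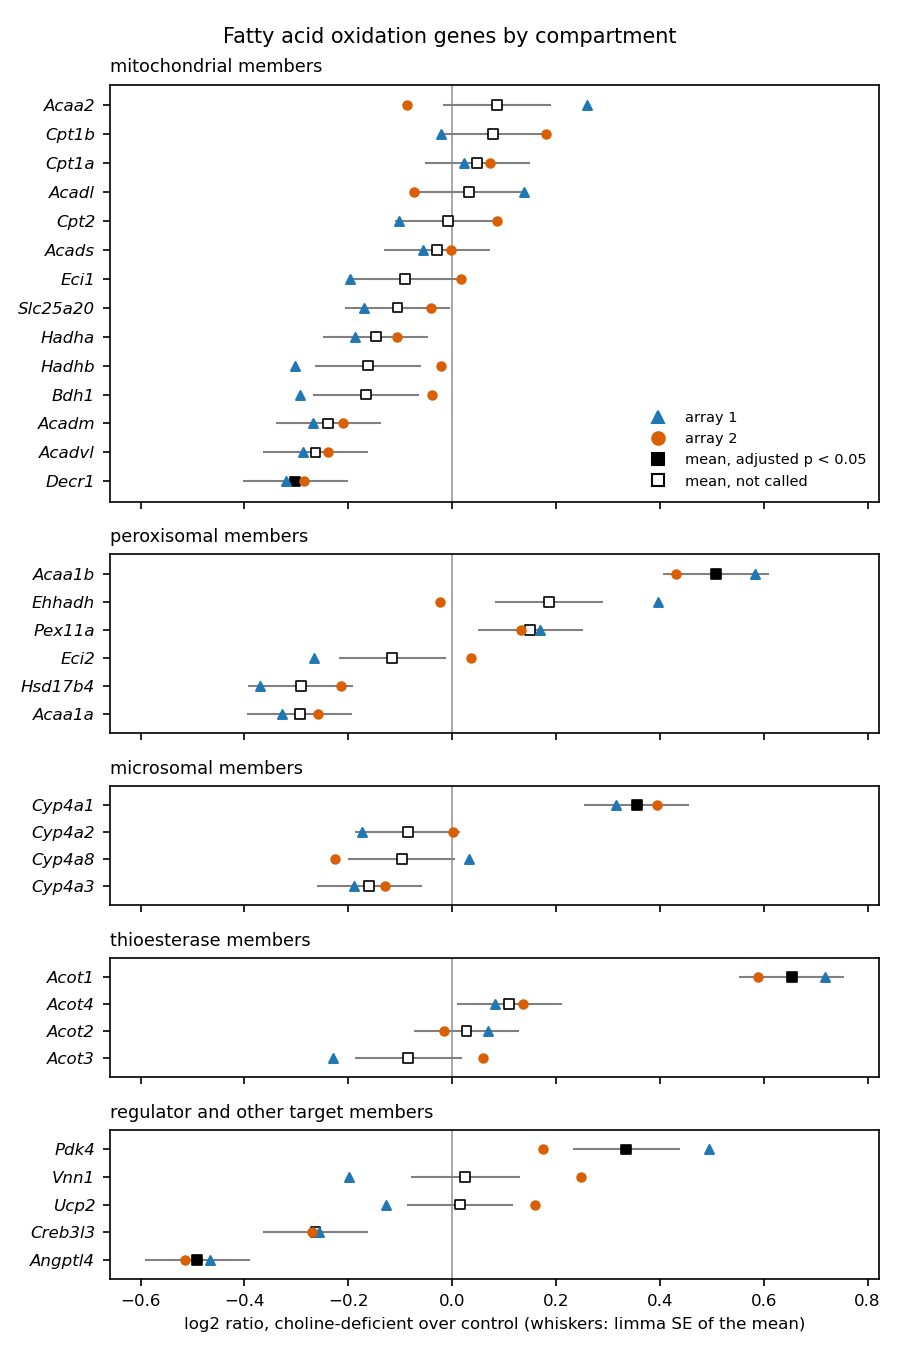
Log2 ratio of choline-deficient over control (x axis) for each of the 33 tested genes (y axis), in panels by compartment. Triangles are array 1, circles array 2 and squares the mean of both, filled where limma's adjusted p is under 0.05, with the limma standard error as whiskers. The filled squares are Acot1, Acaa1b, Cyp4a1 and Pdk4 to the right of 0 and Decr1 and Angptl4 to the left.

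The compartment medians lay between -0.10 and 0.07, against 0.00 for all genes tested. For the 14 mitochondrial members the median was -0.10, from -0.18 on array 1 and -0.04 on array 2. Below 0 on both arrays were 8 of them (57.1%), against 27% of all genes and 34.2% of the brightest 10%. Above 0 on both was 1 (7.14%), against 29.4% of all genes. The 6 peroxisomal members had a median of 0.02 (-0.05 and 0.01), but ranged from -0.29 to 0.51. The 4 microsomal members had a median of -0.09 (-0.07 and -0.06) and the 4 thioesterases a median of 0.07 (0.08 and 0.10). With median centring these medians became 0.08, 0.19, 0.09 and 0.25, so that the mitochondrial and microsomal ones changed sign. The median of all genes was then 0.08 and that of the brightest 10% 0.18, against 0.01 for those after loess. Differences between compartments were not tested.

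The 4 members of the carnitine shuttle, which carries long-chain acyl groups into mitochondria, did not pass the test. Cpt1a, the liver form of the transferase that sets the pace of mitochondrial uptake, had a log2 ratio of 0.02 on array 1 and 0.07 on array 2. Its probe was spotted 10 times, and the SD between spots was 0.07 on array 1 and 0.04 on array 2. The 95% confidence interval of the mean in limma's fit was -0.15 to 0.25 (adjusted p = 0.93). A dimmer Cpt1a probe was the only one of 37 member probes with a known gene strand that lay on the opposite strand, and it gave 0.19 and -0.17. Cpt1b, the muscle form, was at 0.08 ± 0.14 (SD, n = 2 arrays), Cpt2, the inner membrane transferase, at -0.01 ± 0.13, and the carnitine-acylcarnitine carrier Slc25a20 at -0.11 ± 0.09. With median centring Cpt1a was at 0.23 and Cpt1b at 0.26, while Cpt2 (0.18) and Slc25a20 (0.07) changed sign.

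Of the member enzymes of the mitochondrial cycle, Acadvl, Acadm, Acadl, Acads, Hadha, Hadhb and Acaa2 did not pass the test. Acadvl, the dehydrogenase for very long chains, was at -0.29 and -0.24 on the arrays (mean -0.26, adjusted p = 0.106), and a second, dimmer probe at -0.20 and -0.07. Acadm, the medium-chain dehydrogenase, was at -0.27 and -0.21 (mean -0.24, adjusted p = 0.164). The long-chain Acadl (0.03 ± 0.15, SD, n = 2 arrays) and the short-chain Acads (-0.03 ± 0.04) stayed close to 0. Hadha and Hadhb, the subunits of the trifunctional protein, were at -0.15 ± 0.06 and -0.16 ± 0.20. All 3 Hadha probes were below 0 on both arrays, between -0.08 and -0.20. The thiolase Acaa2, which ends each round, differed in sign between the arrays (0.26 and -0.09), as did its dimmer probe (-0.11 and 0.15). With median centring Acadvl was at -0.09 and Acadm at -0.07, while Hadha (0.03) and Hadhb (0.03) changed sign.

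Decr1 and Eci1 are auxiliary enzymes that let unsaturated fatty acids enter the cycle. The normalized log2 level of Decr1 was 15.38 with the deficient diet against 15.70 in control on array 1, and 15.31 against 15.59 on array 2. The mean log2 ratio was -0.30 ± 0.02 (SD, n = 2 arrays, limma adjusted p = 0.0471). Decr1 was called in only 2 of the 9 alternatives that allow a test, and with an intensity-dependent prior its adjusted p was 0.282. Eci1, the enoyl-CoA isomerase, was at -0.20 and 0.02. Bdh1, which interconverts the ketone bodies acetoacetate and 3-hydroxybutyrate, was at -0.29 and -0.04 at its brighter probe and at -0.10 and -0.21 at the dimmer one (adjusted p = 0.462 for the brighter).

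Of the 6 peroxisomal genes 1 was called. Acaa1b, a 3-ketoacyl-CoA thiolase, had a normalized log2 level of 15.86 with the deficient diet against 15.28 in control on array 1, and 15.87 against 15.44 on array 2. The mean log2 ratio was 0.51 ± 0.11 (SD, n = 2 arrays, limma adjusted p = 0.000183), and with an intensity-dependent prior the adjusted p was 0.0192. The brighter probe of its paralog Acaa1a went the other way, at -0.33 and -0.26 (mean -0.29, adjusted p = 0.0574). It was just past the threshold when only probes above background in both diets were tested (adjusted p = 0.0497).

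The second Acaa1a probe, whose sequence starts 682 bases before that of the first in the genome, was positive at 0.22 and 0.32 (mean 0.27). With each probe tested on its own, a test that called 7.18% of all 22367 probes, its adjusted p was 0.115 and that of the brighter probe 0.0736. The probes of this gene therefore disagreed in sign on both arrays, by 0.55 on array 1 and 0.57 on array 2. Acaa1b exceeded the brighter Acaa1a probe by 0.91 and 0.69, and the dimmer one by 0.36 and 0.12. These gaps hardly moved with the scaling (0.80 after loess, 0.80 with median centring and 0.77 with the deposited log ratio for the brighter probe). A shift common to both probes cancels in such a gap, so this stability was largely given in advance. The difference of the gaps from 0 was not tested. The mean of both Acaa1a probes was -0.01 (adjusted p = 0.986), so no direction is given for this gene.

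The other peroxisomal members did not pass. Hsd17b4, the multifunctional enzyme of branched and very long chains, was at -0.37 and -0.21 (adjusted p = 0.0607), and it passed under 3 of the 9 alternatives. Ehhadh, the bifunctional enzyme for straight chains, was at 0.40 on array 1 and -0.02 on array 2, so its mean of 0.19 was smaller than its spread (SD 0.30). Eci2, an isomerase found in peroxisomes and mitochondria, was at -0.27 and 0.04. Pex11a, a membrane protein of peroxisome division, was at 0.17 and 0.13, with a 95% confidence interval of -0.05 to 0.35 for the mean.

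Of the 4 Cyp4a genes, which encode fatty acid omega-hydroxylases, Cyp4a1 alone passed. Its normalized log2 level was 14.14 with the deficient diet against 13.82 in control on array 1, and 14.29 against 13.89 on array 2. The mean log2 ratio was 0.36 ± 0.06 (SD, n = 2 arrays; limma adjusted p = 0.0136). Cyp4a2 was at -0.17 and 0.00, Cyp4a3 at -0.19 and -0.13 and Cyp4a8 at 0.03 and -0.23. The ratio of Cyp4a1 exceeded that of Cyp4a3 by 0.51 and 0.52 on the arrays, that of Cyp4a2 by 0.49 and 0.39 and that of Cyp4a8 by 0.28 and 0.62. All of these differences were positive on both arrays, and none was tested. The coordinates of the Cyp4a2 probe cover a longer stretch of the genome than its 60 bases.

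Of the 4 thioesterases 1 was called. This was Acot1, the cytosolic enzyme, which had a normalized log2 level of 14.46 with the deficient diet against 13.74 in control on array 1, and 14.43 against 13.84 on array 2. It had the highest ratio of the 33 members after loess, 0.65 ± 0.09 (SD, n = 2 arrays; limma adjusted p = 1.28e-06). Acot2, the mitochondrial enzyme of the neighbouring gene, had levels of 13.93 and 13.86 on array 1 and 13.80 and 13.81 on array 2, with a mean ratio of 0.03 ± 0.06 and a 95% confidence interval of -0.17 to 0.23. The peroxisomal Acot4 (0.11 ± 0.04) and Acot3 (-0.08 ± 0.20) did not pass either. The ratio of Acot1 exceeded that of Acot2 by 0.65 and 0.60, that of Acot3 by 0.95 and 0.53 and that of Acot4 by 0.64 and 0.45. These gaps were not tested.

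**Figure D2:**
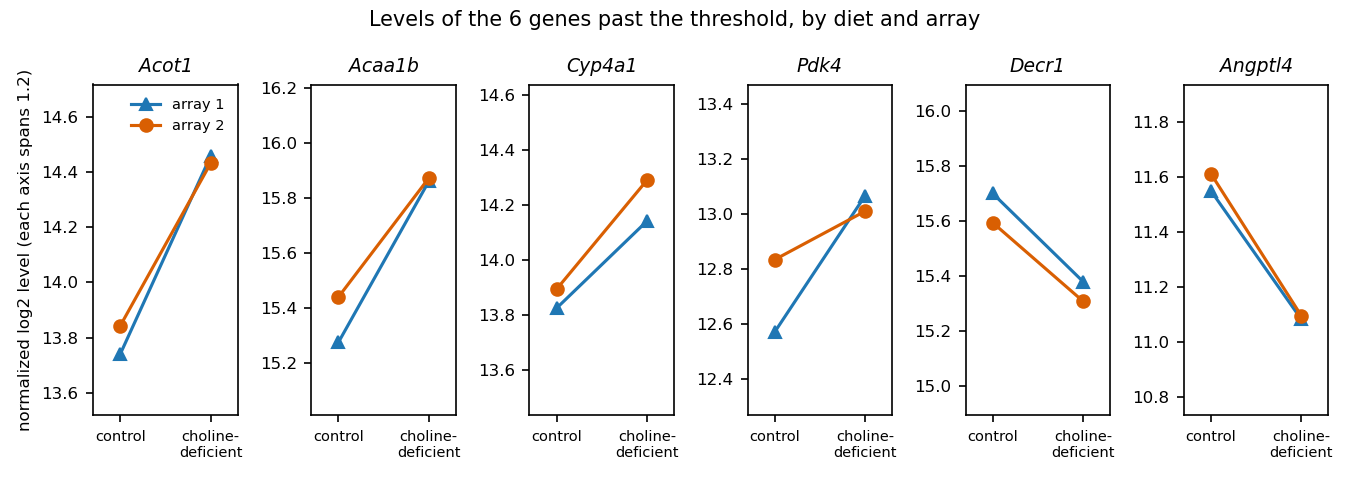
Normalized log2 level (y axis, each spanning 1.2 units) of the 6 genes past the threshold in control and choline-deficient liver (x axis), with a line for array 1 (triangles) and array 2 (circles). The lines rise for Acot1, Acaa1b, Cyp4a1 and Pdk4 and fall for Decr1 and Angptl4, and for Pdk4 the control values lie farther apart than those of the other genes.

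Regulators and further target genes moved in both directions. Angptl4, a secreted inhibitor of lipoprotein lipase, had a normalized log2 level of 11.08 with the deficient diet against 11.55 in control on array 1, and 11.10 against 11.61 on array 2. Its mean log2 ratio was -0.49 ± 0.03 (SD, n = 2 arrays; limma adjusted p = 0.000289), the lowest of the 33 members. Pdk4, a kinase that restrains glucose oxidation by inactivating pyruvate dehydrogenase, had levels of 13.06 against 12.57 on array 1 and 13.01 against 12.83 on array 2. Its ratio was 0.33 ± 0.23 (adjusted p = 0.0262), with 0.49 on array 1 and 0.18 on array 2, and it was called in 4 of 9 alternatives. A dim Pdk4 probe gave 0.13 and 0.02, and with both probes averaged the ratio was 0.21 (adjusted p = 0.244). With the deposited log ratio the probes lay closer together, at means of 0.32 (brighter) and 0.27 (dimmer).

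Creb3l3, a membrane-bound liver transcription factor that acts with PPAR-alpha, was at -0.26 and -0.27, with nearly the same value on both arrays (adjusted p = 0.106). Vnn1, a pantetheinase of coenzyme A recycling, differed in sign between the arrays (-0.20 and 0.25). The uncoupling protein gene Ucp2, spotted 10 times, also differed in sign (-0.13 and 0.16). The SD between its spots was 0.10 on array 1 and 0.07 on array 2, less than the gap between the arrays. Ucp3, the muscle uncoupling protein, was above background on neither array in either diet, and so was the coactivator gene Ppargc1a, so no fold is given for them.

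**Figure D3:**
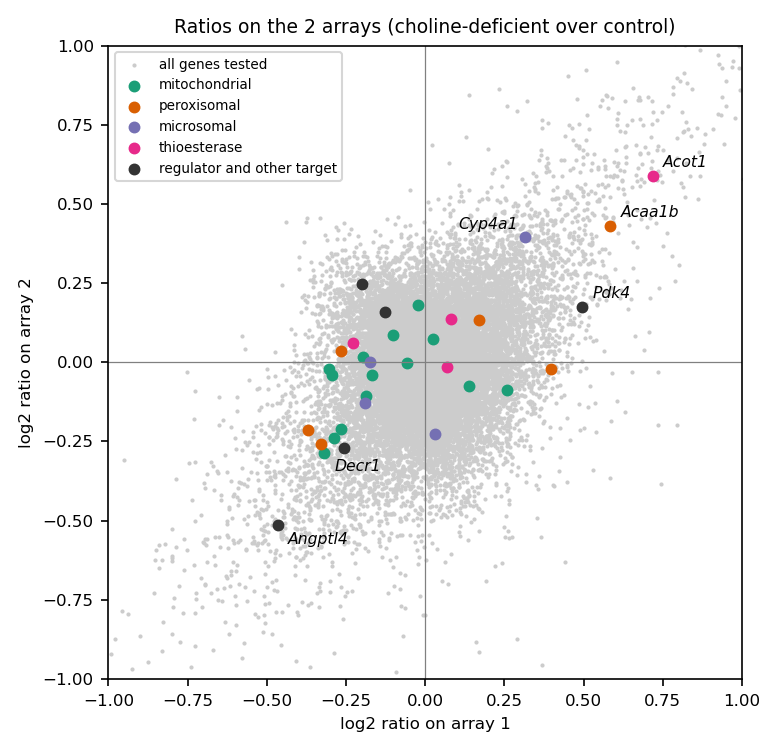
Log2 ratio of choline-deficient over control on array 1 (x axis) and array 2 (y axis). Grey points are all 18196 genes tested, of which those within 1 unit of 0 on both axes are drawn, and coloured points are the 33 members by compartment; Acot1, Acaa1b and Cyp4a1 lie in the upper right and Angptl4 in the lower left, while 13 members have opposite signs on the arrays.

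Over all members, 7 were above 0 on both arrays, 13 were below 0 on both and 13 had opposite signs. Below 0 on both arrays were 39.4% of members, against 27% of all genes and 34.2% of the brightest 10%. Above 0 on both were 29.4% of all genes and 21.2% of members. With median centring 0 members were below 0 on both arrays. The share of all genes under that processing is not given here, so this count shows nothing particular to the members. The median SD between arrays was 0.11 for the members, 0.10 for all genes and 0.11 in the brightest 10%.

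The rest of the pathway was read from a list of 84 other names on the arrays for fatty acid activation, carnitine esters, oxidation, peroxisomes and their regulators, of which 78 were tested. Of these, 3 rose and 16 fell, so that 20.5% were called lower, against 4.23% of all genes and 12.2% of the brightest 10%, in which 27 of the 78 lie. The median ratio of the list was -0.14 (-0.12 on array 1 and -0.14 on array 2), or -0.01 with median centring, where the median of all genes was 0.08. The 16 genes that fell stayed below 0 on average under every alternative, some of which reuse the same ratios. They passed under neither the deposited log ratio nor median centring (19 and 0 genes of the list at an unadjusted p under 0.05).

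The largest decrease of the list was in Crot, the carnitine octanoyltransferase that takes shortened chains out of peroxisomes, at -0.86 and -0.73 (mean -0.79, adjusted p = 9.58e-09). Phyh, the hydroxylase that starts alpha-oxidation of phytanic acid, followed at -0.63 and -0.68 (mean -0.65, adjusted p = 1.30e-06). Hacl1, the lyase of the same route, was at -0.32 ± 0.14 (SD, n = 2 arrays). Amacr and Acox2, which act on branched chains and bile acid intermediates, were at -0.39 ± 0.04 and -0.36 ± 0.18. The peroxisomal reductases Decr2 and Pecr were at -0.47 ± 0.05 and -0.35 ± 0.15, and catalase, Cat, at -0.30 ± 0.19.

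In mitochondria the short-chain hydroxyacyl-CoA dehydrogenase Hadh (-0.50 ± 0.08), the electron transfer flavoprotein subunit Etfb (-0.53 ± 0.30) and the acetoacetyl-CoA thiolase Acat1 (-0.43 ± 0.10) fell. Acsl1, the main long-chain acyl-CoA synthetase of liver, fell (-0.53 ± 0.10), while Acsl3 rose (0.68 ± 0.01). The thioesterase Acot12 fell (-0.46 ± 0.18) and Acot9, a mitochondrial thioesterase, rose (0.52 ± 0.01). The omega-hydroxylase genes Cyp4f1 (-0.55 ± 0.21), Cyp4f4 (-0.52 ± 0.29) and Cyp4f6 (-0.41 ± 0.12) fell, and Cyp4f5 did not pass the filter on dim probes. The fatty acid-binding protein Fabp1 rose (0.55 ± 0.35).

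Among those that did not pass, the largest ratios were those of Pex19 (-0.29), Slc27a2 (-0.27), Abcd2 (-0.26) and Pex7 (-0.26). The receptor gene Ppara itself was at -0.01 and -0.32 (limma adjusted p = 0.457), and its partner Rxra at -0.02 ± 0.10. Ppara was dim, at brightness percentile 27.3 of the genes tested (Rxra at 47.4), where the processing understates folds. The missing call therefore says little about Ppara. In total 48 of 78 genes of the list were below 0 on both arrays (61.5%), against 27% of all genes. With median centring 2 were, a count given without the share of all genes under that processing.

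**Figure D4:**
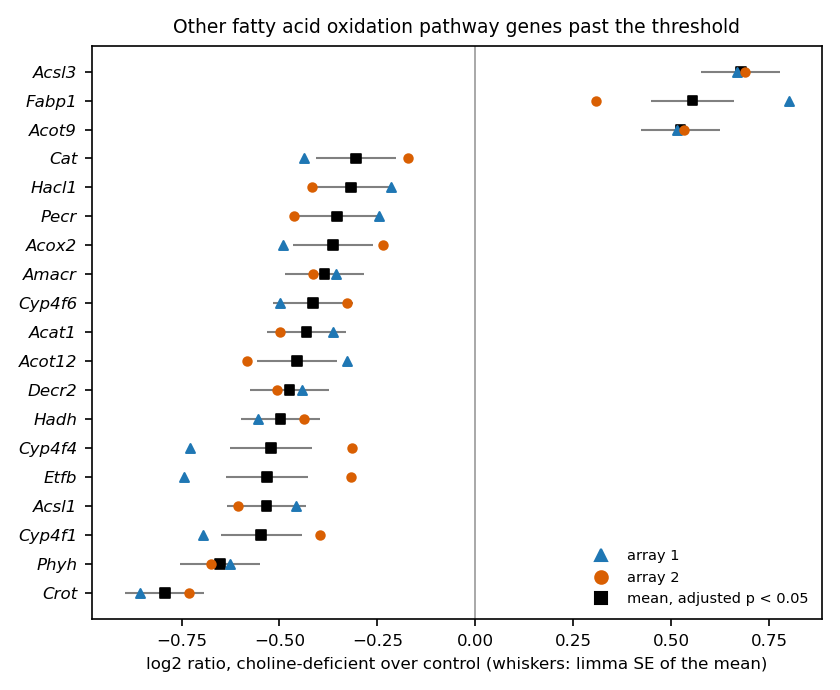
Log2 ratio of choline-deficient over control (x axis) for the 19 other pathway genes past limma's adjusted p of 0.05 (y axis). Triangles are array 1, circles array 2, squares the mean with the limma standard error; 3 genes lie to the right of 0 and 16 to the left, from Cat at -0.30 to Crot at -0.79.

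The defining hepatocyte markers were present, with 10 of 10 tested. In bulk liver RNA fewer cells of a type and less RNA per cell cannot be told apart. Hepatocyte markers were spread widely, with 2 called higher and 3 lower, and their summed normalized intensity was 762017 and 611281 with the deficient diet against 730166 and 888379 in control on arrays 1 and 2. Of 13 macrophage markers 2 rose and 1 fell, with sums of 44073 and 47210 against 52122 and 48060. Of 10 muscle markers 7 were dim, among them Ckm and Acta1, and none of the other 3 was called. Of 8 adipocyte markers 5 were dim, among them Adipoq, Lep and Plin1, while Fabp4 rose and Cfd fell. The part of other cell types in the member ratios was not tested.

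**Figure D5:**
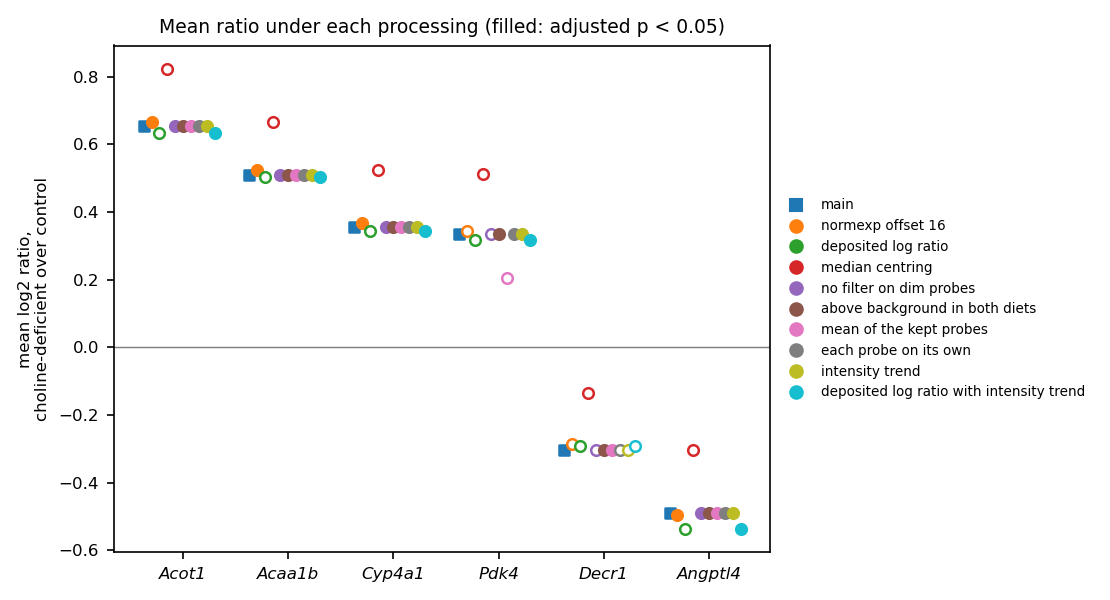
Mean log2 ratio of choline-deficient over control (y axis) of the 6 called members (x axis) under the reported processing (square) and 9 alternatives (circles), filled where the adjusted p is under 0.05. Acot1, Acaa1b, Cyp4a1 and Angptl4 are each filled under 7 of 9 alternatives, Pdk4 under 4 and Decr1 under 2. No point crosses 0, but the changed filters, the single probes and the intensity trend reuse the reported ratios.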

How the data were processed

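2-colour intensity values of rat liver RNA were taken from the deposited scanner files, made with Agilent Feature Extraction 9.5.3.1 per the file headers (9.5 in the submitters' processing notes). Per the file headers, the deposited log10 ratio is that of Cy5 over Cy3 after background subtraction, detrending and lowess dye normalization, and the deposited p-value comes from an error model within 1 array. The deposited series table equalled that log10 ratio within 1% of each value in 45018 of 45018 rows on both arrays. Both arrays are on 1 slide and share 1 scan, per the file headers.

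Signals were corrected by normexp (offset 50), normalized by loess within each array and turned to choline-deficient over control with limma 3.58.1 in R 4.3.3. Outlier spots (174 and 151) were dropped before averaging the spots of each probe. The offset understates folds of dim probes. Probes had to be well above background in at least 1 diet on both arrays (22367 probes), and a gene was represented by its brightest kept probe. Levels are log2 values after A-quantile scaling. Ratios were tested against 0 with lmFit and eBayes, two-sided, with Benjamini-Hochberg adjustment over 18196 genes, 1 residual and 62.2 prior degrees of freedom. The standard error was therefore nearly the same for every gene. Of the spots for genes, 53.5% to 63.2% per dye and array were well above background, and 0 were saturated. The number of arrays limits the precision.

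The members, the lists and the tests were chosen with earlier results of these data known. Every member is described; of the other pathway genes, those that passed and the 4 largest that did not, with Ppara and Rxra chosen after their values were seen. The fit was also run on simulated ratios, with the differences between arrays shuffled over genes and given random signs. That run cannot speak to spread or dye bias that varies with brightness, and its outcome is not given here. Names are those of the files, and all 35 equal current RefSeq symbols of GRCr8.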

Additional observations from a re-analysis of the deposited data

How the results depend on the processing

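Alternatives were another offset (16), the deposited log ratio, median centring, no filter, a filter requiring signal in both diets, the mean of a gene's probes, each probe on its own, an intensity trend, either array alone and, added after seeing the data, the deposited log ratio with an intensity trend. Each ratio already pairs the diets within an array. No further pairing was possible, since there is only 1 group of arrays. With the deposited log ratio and with median centring limma called 0 genes in every count, higher and lower, for all genes, members and other pathway genes (2122 and 19 of all genes at an unadjusted p under 0.05), while the deposited log ratio with the trend called 1120 higher and 1204 lower. The members called lower (2) became 1 with offset 16, without the filter and with each probe on its own, and 3 with the filter on both diets, the mean of probes and the deposited log ratio with the trend. Those called higher (4) became 3 with offset 16, without the filter and with the mean of probes.

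The mitochondrial, peroxisomal, microsomal and thioesterase medians were 0.077, 0.19, 0.085 and 0.25 with median centring, which turned the sign of 12 member genes, none of them called. The microsomal median was -0.081 with offset 16 and -0.11 with the deposited log ratio, and the thioesterase median 0.042 with the latter, with and without the trend. On single arrays, which allow no test, the medians ranged from -0.18 to -0.04 (mitochondrial), -0.049 to 0.0065 (peroxisomal), -0.071 to -0.064 (microsomal), 0.076 to 0.098 (thioesterase) and -0.20 to 0.16 (regulators and other targets). The cause of these shifts was not tested. Dim probes (Ucp3, Ppargc1a) limit what can be said of those genes.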
